A study of Drosophila melanogaster with 3 samples.

Results

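Mitochondria fuse, divide, move along microtubules and import nearly all of their proteins from the cytosol, and the genes described here encode the machinery of these processes. Outer membranes are fused by mitofusin, which is Marf in *Drosophila*, and inner membranes by Opa1, while Drp1 divides the organelle. The kinase Pink1 and the ubiquitin ligase parkin, encoded by *park*, act in 1 pathway that marks damaged mitochondria for removal and has Marf among its substrates, and this pathway was worked out to a large extent in fly muscle. Miro and milton (*milt*) link mitochondria to kinesin, and Tom20 and Tom40 form the receptor and the channel of the import complex of the outer membrane. *tomboy40* is a relative of *Tom40* that is known from the male germ line.

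The set consists of 10 genes listed by CG number, namely *Marf* (CG3869), *Opa1* (CG8479), *Drp1* (CG3210), *Pink1* (CG4523), *park* (CG10523), *Miro* (CG5410), *milt* (CG13777), *Tom20* (CG7654), *Tom40* (CG12157) and *tomboy40* (CG8330). Of these 10 genes, 7 had a row among the 7498 genes with array values. *Opa1*, *Drp1* and *Pink1* had no row and were unmeasured here. The set was drawn up with earlier results of the same arrays known and *Marf* was chosen for its low values, so that all values of the members are given as a description and without a test.

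Hearts were taken from wandering larvae of the third instar, raised at 22°C. The mutant group was homozygous for the null allele hand[173] and was set against w[1118], which served as wild type. About 100 heart tubes per genotype, with the pericardial cells and the muscles attached to them, were combined into 1 RNA pool for each genotype. The larvae of both genotypes had been anesthetized for 15 seconds at 60°C. The amplified RNA of both pools was hybridized to 3 spotted 2-colour arrays, with hand[173] in Alexa Fluor 647 and w[1118] in Alexa Fluor 555 on each array and without a dye swap. The arrays are technical replicates of 1 pair of pools according to the methods, whereas their titles carry the letters bR, which the labels do not explain. The contrast of genotypes was not repeated with further RNA. An SD given here covers the spread between arrays only, and a dye effect cannot be told apart from the genotype. In such pooled tissue a lower share of a cell type and less RNA per cell cannot be told apart either.

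Each value is a log2 ratio of hand[173] over w[1118], positive where the transcript was more abundant in hand[173]. Array 1 gave 1372 values with a median of 0.97, array 2 gave 2650 values with a median of 0.38, and array 3 gave 6459 values with a median of -0.56. A value of 0 thus lay in the lower part of array 1 and in the upper part of array 3, so that each value is given as deposited and again after the median of its array had been set to 0, which is called centred. The values were ratios and carry no level of a transcript. The tissue could therefore not be checked from them. Of 12 heart marker genes 8 had a row, whereas *tin*, *H15*, *pnr* and *Doc3* had none. Rows were also present for 5 of 6 fat body markers, 3 of 7 pericardial markers and 3 of 6 hemocyte markers. The presence of a row thus does not tell the tissue. On array 3, centred as described above, the median was -0.10 for the heart markers (7 values), 0.80 for those of pericardial cells (1 value), 0.11 for muscle (8 values), 0.19 for fat body (4 values) and -1.31 for hemocytes (2 values). On array 2 these medians were 0.19 for heart (2 values), 1.06 for pericardial cells (1 value), -0.83 for muscle (5 values), -1.57 for fat body (2 values) and -0.14 for hemocytes (2 values). The muscle values of both arrays include CG30174, CG30179 and CG33149, which are all numbers of the gene *Mlp60A*. These had -2.98, 0.45 and -1.31 on array 2 after centring, and so did not share a direction. The array 2 medians over 2 values also joined opposite sides. They came from *Lsp1alpha* (-3.68) and *Fbp1* (0.53) for fat body and from *Pxn* (-2.07) and *srp* (1.78) for hemocytes. For heart they came from *Sur* (0.68) and *tup* (-0.30). On array 1 no heart marker had a value, and the other medians lay between -0.67 for hemocytes (1 value) and 0.39 for fat body (3 values). The marker groups thus kept no common order over the arrays, and the part of other cell types in the values of the members was not tested. The *Hand* gene itself (CG18144) was measured on array 3 alone, where its log2 ratio was -0.16 as deposited and 0.40 after centring, higher than 72.0% of all values. The transcript of the mutated gene was thus not low within that array in hand[173]. What the allele leaves of the transcript and where the probe lies are not given in the sources used here, so that this value is no check of the labels.

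Among the members with values, *Marf* had the lowest ratio and *park* the highest. *Marf* had log2 ratios of -1.16 on array 1 and -0.95 on array 2, or 0.449 and 0.518 of the wild type level, and no value on array 3. Both values lay on the same side, and their mean was -1.05 ± 0.15 (SD, n = 2 arrays), a relative level of 0.482. *park* had 1.72 on array 1 and 1.55 on array 3, or 3.30 and 2.93 times the wild type level, and no value on array 2. Its mean was 1.63 ± 0.12 (SD, n = 2 arrays), a relative level of 3.11. The mitofusin and the ubiquitin ligase thus departed from wild type in opposite directions, each on both arrays that measured it, but only array 1 measured both genes.

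In the scoring of the methods, a gene counted as upregulated or downregulated once 2 arrays passed the same threshold. This rule was applied anew to the deposited values, and the genes it scores here need not be those that the study lists. The upper threshold lies at a log2 ratio of 0.41, and the lower one at -0.58, which is a ratio of 0.67. Among the 3 members with values on at least 2 arrays, 1 was scored as downregulated (*Marf*) and 2 as upregulated (*park* and *tomboy40*). Over all 2517 genes with at least 2 values, 20.5% were scored as downregulated and 9.69% as upregulated, and nothing is read from the count of members, since *Marf* entered the set through this rule. With each array centred on its median the same 3 genes were scored in the same directions, against 21.9% and 11.8% of all genes. *Miro*, *milt*, *Tom20* and *Tom40* had a value on 1 array each and could not meet the rule whatever their ratio.

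**Figure D1:**
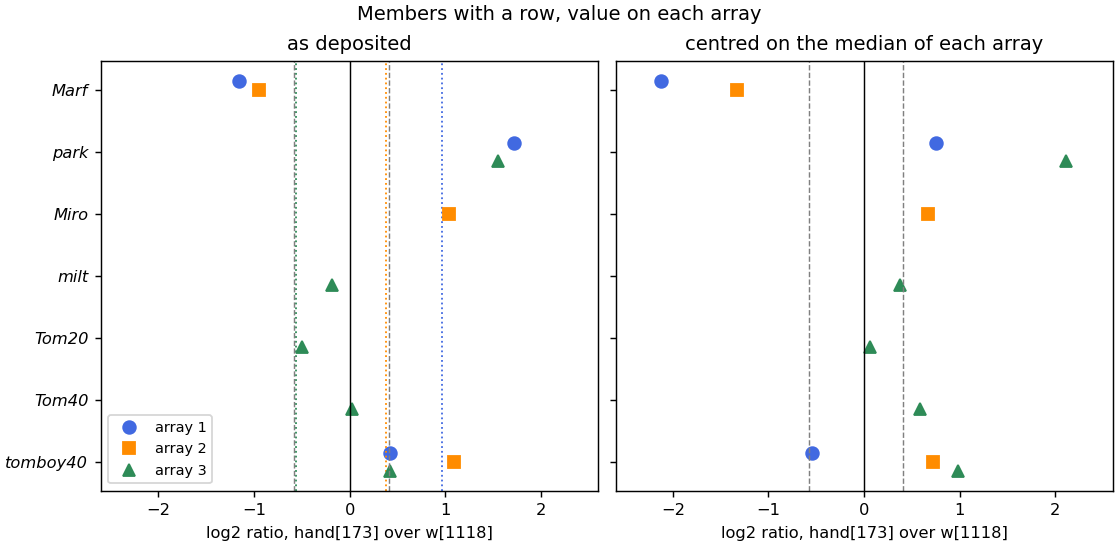
Log2 ratio of hand[173] over w[1118] of the 7 members with a row (rows) on array 1 (circles), array 2 (squares) and array 3 (triangles), as deposited on the left and with each array centred on its median on the right. Dashed grey lines mark the thresholds of 0.41 and -0.58 and dotted coloured lines the median of each array; *Marf* lies left of the lower threshold on both of its arrays, and *tomboy40* moves across 0 on array 1 after centring.

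The position of *Marf* differed between its arrays. On array 1, where 4.23% of all values lay under 0.67, only 2.48% of the values were lower than that of *Marf*. On array 2, where 22.8% of all values lay under 0.67, 18.6% were lower. Centred values were -2.12 on array 1 and -1.33 on array 2, with a mean of -1.73 ± 0.56 (SD, n = 2 arrays), while 21.9% and 29.1% of all centred values of these arrays lay under 0.67. *Marf* was chosen for its low values, so that nothing is read from its direction. Its rank within the array was far more extreme on array 1 than on array 2.

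Values on both array 1 and array 2 were present for 530 genes. Of these, 12 genes (2.26%) lay under 0.67 on both arrays, and *Marf* was 1 of them. By the mean of both arrays *Marf* ranked 28 from the lowest of the 530 genes, with 5.09% of the genes lower. Across these genes Pearson's r between the arrays was 0.0910, so that the values of these 2 arrays were nearly unrelated across genes. The genes share 1 pair of pools and are not independent replicates. In centred values, 82 genes (15.5%) lay under 0.67 on both arrays. The scarcity of such genes among the deposited values thus went with the high level of array 1 as a whole.

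The study measured *Marf* in whole larvae as well, with a primer pair that is printed here because it shows which gene was followed there. The pair was designed to detect several splice variants, and its relation to the array probe is not known here. No value of that assay is used. *Marf* lies on the X chromosome, and both primers are given 5′ to 3′ in lower case, with no part marked.
Marf forward: agcgcctctcgtggacaaattc
Marf reverse: gcaaaggtgctcgacaattcctg
The forward primer has 22 bases with 54.5% G or C, and the reverse primer has 23 bases with 52.2%. The sequence of the array probe was not used here.

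**Figure D2:**
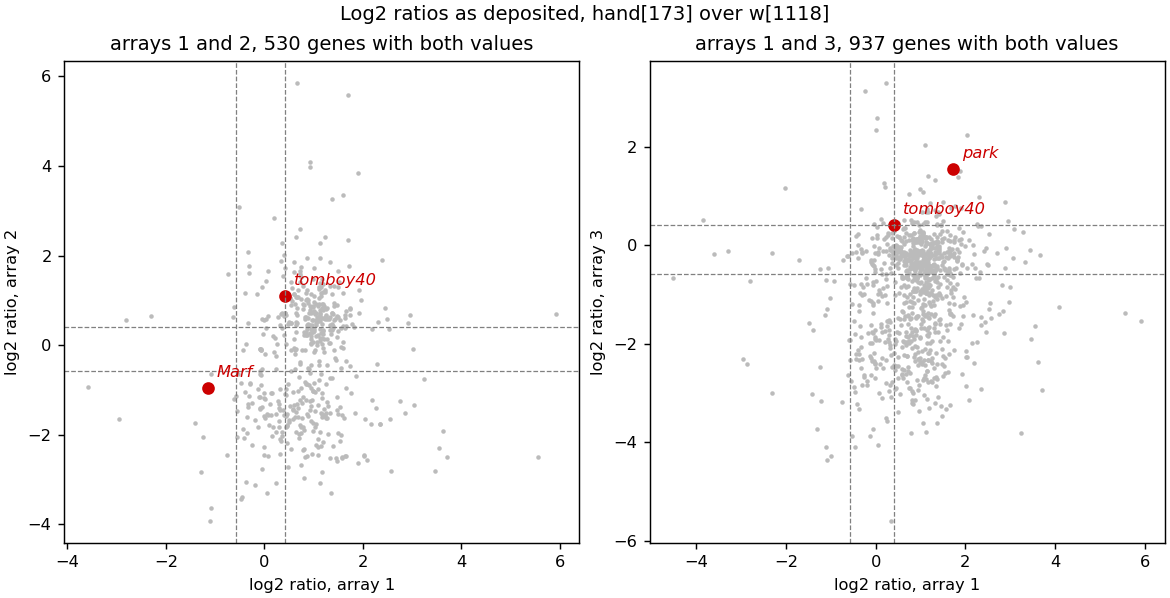
Log2 ratios of hand[173] over w[1118] as deposited, with array 1 on both horizontal axes and array 2 (left, 530 genes) or array 3 (right, 937 genes) on the vertical axes; each grey point is a gene, members with both values are red, and dashed lines mark the thresholds of 0.41 and -0.58. *Marf* lies in the sparse lower left field of arrays 1 and 2, *park* in the sparse upper right field of arrays 1 and 3, and *tomboy40* just past the corner of the upper right field of arrays 1 and 3.

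*park*, which encodes the ubiquitin ligase of the Pink1 pathway, showed the opposite course between its arrays. On array 1, where 77.6% of all values lay over the upper threshold, 11.4% of the values were not lower than that of *park*. On array 3, where 6.50% of all values lay over the upper threshold, this share was 0.790%. After centring, *park* had 0.75 on array 1 and 2.11 on array 3, and the mean became 1.43 ± 0.96 (SD, n = 2 arrays). Values over the upper threshold then made up 22.7% of array 1 and 27.3% of array 3. *park* was therefore high on both arrays in either form, and its rank within the array was more extreme on array 3.

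Of the 937 genes with values on both array 1 and array 3, 41 (4.38%) lay over the upper threshold on both, *park* among them. By the mean of both arrays *park* ranked 13 from the highest. Pearson's r across these genes was 0.136. The scores of *Marf* and *park* both rest on array 1, which across genes was thus only weakly related to array 2 or array 3. The relation between arrays 2 and 3 was not examined here. In centred values 58 genes (6.19%) lay over the upper threshold on both array 1 and array 3, and *park* was among them too. A second gene of the pathway could not be set beside it, since *Pink1* was unmeasured.

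The SD between arrays is given for *Marf* and *park* as a description. *Marf* entered the set by a rule that asks for 2 values past the same threshold, which favours a small SD. As deposited, the SD of 0.15 of *Marf* was smaller than that of all but 10.8% of the 530 genes on the same arrays, whose median SD was 0.83. For *park* the SD of 0.12 compared with a median of 1.25 over 937 genes, of which 2.35% had a smaller one. After centring the SD of *Marf* was 0.56 and that of *park* 0.96, against medians of 0.68 and 0.55. In this form 44.2% of the genes had a smaller SD than *Marf* and 72.7% a smaller one than *park*. Between arrays 1 and 3 the median SD was thus smaller in centred than in deposited values, whereas the SD of *park* was larger. The small SD of their deposited values thus went together with the different levels of the arrays.

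*tomboy40* was the only member with values on all 3 arrays. Its log2 ratios were 0.42, 1.09 and 0.42, or ratios of 1.34, 2.13 and 1.34, with a mean of 0.64 ± 0.39 (SD, n = 3 arrays). All 3 values lay over the upper threshold, as was the case for 5 (1.07%) of the 466 genes with 3 values. Only 6.50% of all deposited values of array 3 lay over it, so that few genes could pass on all 3 arrays. After centring *tomboy40* did not pass it on array 1. On arrays 1 and 3 the margin over the threshold was 0.01 on the log2 scale, so that *tomboy40* marks the inner edge of the scoring. At an upward threshold of 1.5, a choice made with the values in view, it was not scored, and of all genes with at least 2 values 6.71% were.

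Centring turned the direction of *tomboy40* on array 1. Its centred values were -0.55, 0.72 and 0.98, with a mean of 0.38 ± 0.82 (SD, n = 3 arrays), which is smaller than the spread. On array 1, 22.4% of the values were lower than that of *tomboy40*, against 80.0% on array 2 and 93.6% on array 3. The gene was thus below the middle of array 1 and well above that of arrays 2 and 3. Centred on array 1 its ratio of 0.683 came close to the lower threshold of 0.67 without passing it. By the mean of the 3 arrays it ranked 65 from the highest of 466 genes.

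The genes of mitochondrial transport were measured on 1 array each. *Miro* encodes a GTPase of the outer membrane that anchors the transport complex. It had 1.04 on array 2, or 2.06 times the wild type level, and 0.67 after centring. It was past the upper threshold in either form, as were 48.3% of the deposited and 31.3% of the centred values of array 2, and 77.9% of the values were lower. *milt*, the adaptor between Miro and kinesin, had -0.18 on array 3 under the listed number CG13777, or 0.883 of the wild type level, and 0.38 after centring. It was not past a threshold in either of these forms, and 70.7% of the values of array 3 were lower.

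A further number, CG31630, is assigned to *milt* by RefSeq. Its only value was 1.15 on array 2, or 2.23 times the wild type level, with 0.78 after centring and 81.6% of the values of array 2 lower. The numbers CG13777 and CG31630 thus gave deposited ratios on opposite sides of 1, whereas both were positive after centring. They were read on different arrays and were not combined, since the probes behind them were not used here.

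The import genes *Tom20* and *Tom40* were not past a threshold as deposited. *Tom20*, the receptor for proteins with a presequence, had -0.50 on array 3, or 0.709 of the wild type level, and 0.06 after centring, so that it lay at the middle of its array with 53.0% of the values lower. *Tom40*, the channel of the complex, had 0.03 on array 3, or 1.02 times the wild type level. After centring it had 0.59, a ratio of 1.5, with 82.3% of the values lower. *Tom40* was past the upper threshold only in the centred form, as were 27.3% of all values of array 3, whereas *Tom20* passed it in neither of these forms. With the arrays centred on the genes that had 3 values instead, *Tom20* had 0.63, *Tom40* 1.16 and *milt* 0.95, all over the upper threshold. The median of array 3 was -1.13 over those genes, against -0.56 over all its values. In this form a value at the middle of array 3 thus passes the upper threshold. The calls of these 3 genes depended on the centring, and nothing is read from them.

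Over the members as a set, the values differed by array. On array 3 all 5 members with a value (*park*, *milt*, *Tom20*, *Tom40* and *tomboy40*) lay above the array median, with centred values from 0.06 to 2.11 and a median of 0.59. On array 2 the 3 members with a value had a centred median of 0.67, with *Marf* at -1.33 as the lowest and *tomboy40* at 0.72 as the highest. On array 1 the 3 members had a centred median of -0.55, with a range from -2.12 for *Marf* to 0.75 for *park*. Ratios under 0.67 were those of *Marf* alone among the members, on either array that measured it and in either form. On array 3, where 49.0% of all deposited values lay under 0.67, none of the 5 members did.

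**Figure D3:**
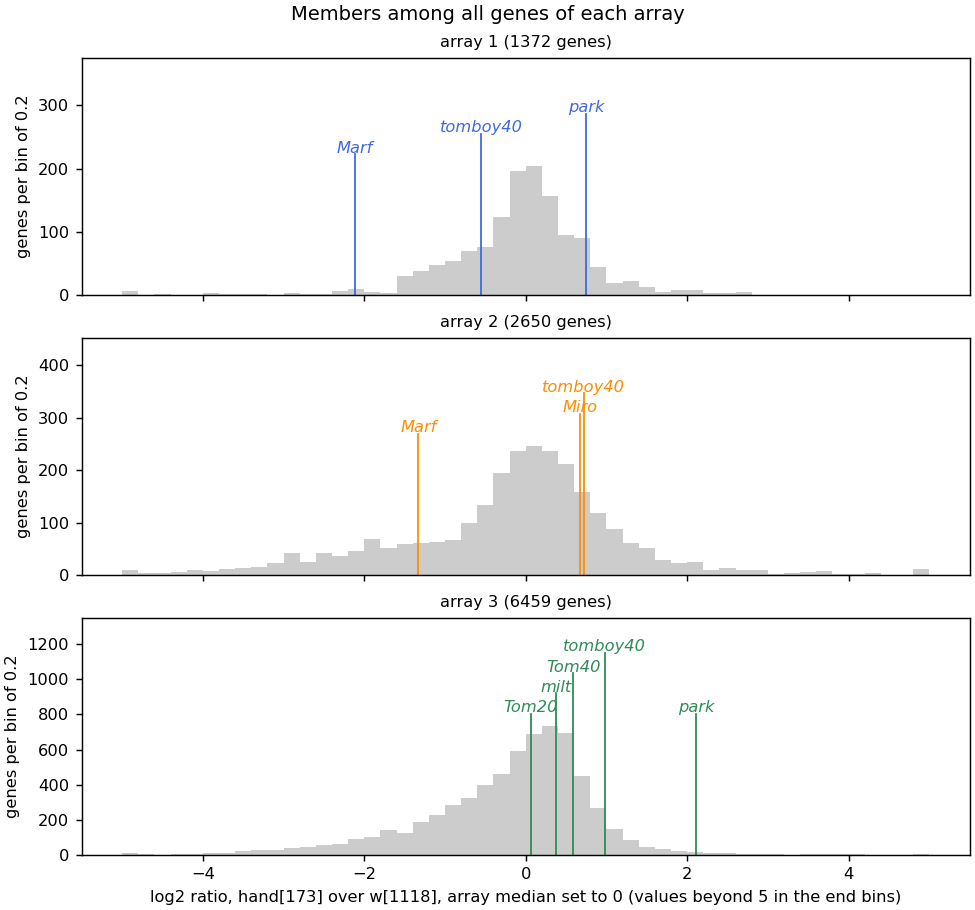
Number of genes (vertical axis) by log2 ratio of hand[173] over w[1118] with each array median set to 0 (horizontal axis, bins of 0.2), for array 1, array 2 and array 3 from top to bottom. Coloured lines mark the members with a value; all 5 members on array 3 lie right of 0, and *Marf* lies in the lower tail of arrays 1 and 2.

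For 3 members a relative with a role in the male germ line can be set beside the more broadly expressed gene. *fzo* (CG4568), the founding mitofusin, acts during the fusion of mitochondria in developing sperm. It had -0.79 on array 3, -0.23 after centring, and could not be compared with *Marf* on a shared array. *tomboy40* and *Tom40* were both measured on array 3, where *tomboy40* had the higher ratio, with a centred value of 0.98 against 0.59 for *Tom40*. *tomboy20* (CG14690), the relative of *Tom20*, had 1.2 on array 1 and -3.30 on array 3. Its mean of -1.05 ± 3.18 (SD, n = 2 arrays) gave no direction, and on array 3 its centred value of -2.75 stood against 0.06 for *Tom20*.

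Testis genes were looked up because of these relatives, in a list of 20 genes written after the values were seen. Of these, 12 had a row and 5 had at least 2 values, of which none was scored as deposited and 1 (*Mst98Ca*) as upregulated after centring, where 11.8% of all genes were. The centred medians were 0.45 on array 2 (7 genes) and 0.11 on array 3 (10 genes), and none had a value on array 1. Centred values ran from -0.66 for *Mst98Cb* to 2.86 for *Mst84Da* on array 2 and from -3.52 for *janB* to 2.02 for *bam* on array 3. Of the 5 genes with values on both arrays, *can*, *mia*, *Mst84Da* and *Mst98Ca* were above the middle of both, and *ocn* had -0.28 on array 2 and 0.15 on array 3. The part of gonadal RNA in the values of *tomboy40* was not tested.

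Other genes of mitochondrial dynamics, quality control and import were taken from a list of 68 names, of which 56 were matched in RefSeq. They gave 29 rows, 11 with values on 2 arrays and none with values on all 3. As deposited, 1 of the 11 was scored as downregulated (*Tom7*) and 0 as upregulated. After centring 3 were scored as downregulated (*Tom7*, *HtrA2* and *BNIP3*) and 1 as upregulated (*Roe1*), beside the 21.9% and 11.8% of all genes given above. Over these 11 genes the median of the mean centred value was 0.03, and over all genes with at least 2 values it was 0.01. On single arrays the centred median of the 29 rows was 0.17 on array 1 (6 values), -0.08 on array 2 (11 values) and -0.23 on array 3 (23 values). These medians lay near the middle of each array, whereas single genes spread to both sides. After centring, 1, 5 and 7 of these values lay under the lower threshold on arrays 1, 2 and 3, beside 21.9%, 29.1% and 28.1% of all values. Over the upper threshold lay 2, 3 and 4, beside 22.7%, 31.3% and 27.3%. Nothing is read from these counts.

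Within the import complex of the outer membrane, *Tom7* (CG8226), a small subunit that modulates the stability of the complex in yeast, had -1.78 on array 2 and -2.0 on array 3. Its mean was -1.89 ± 0.16 (SD, n = 2 arrays) as deposited and -1.80 ± 0.50 after centring. The members of the same complex on array 3, *Tom20* and *Tom40*, had centred values of 0.06 and 0.59, against -1.45 for *Tom7*. The receptor *mge*, the fly Tom22, which is named as a further subunit with a value, had -0.02 on that array. CG32267 of the same list had 0.24, and *tomboy20*, with the -2.75 given above, was lower than *Tom7*. After centring, *Tom7* and *tomboy20* were the listed genes of this complex past the lower threshold on array 3, as were 28.1% of all values of that array. *Tom20*, *Tom40*, *tomboy40*, *mge* and CG32267 lay near or above the middle, and nothing is read from this count.

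Among the genes of quality control, 3 besides *park* had values on 2 arrays. *HtrA2* (CG8464), a protease of the intermembrane space, had -0.55 on array 2 and -1.49 on array 3, or -0.93 on both arrays after centring. *BNIP3* (CG5059), which in mammals is a receptor for the removal of mitochondria, had -0.52 and -1.39, or -0.89 and -0.84 after centring. Both genes lay just above the lower threshold of array 2 as deposited, at a log2 value of -0.58, and past it after centring. *Pgam5* (CG14816), a phosphatase of the mitochondrial membrane, had 0.29 and 0.86, or -0.08 and 1.41 after centring, and was not scored. The quality control genes thus did not share a direction, and those with values on arrays 2 and 3 had none on array 1, where *park* was measured.

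Of the genes that shape the inner membrane, none was scored. Among those with values on 2 arrays, *Phb2* (CG15081), a prohibitin, had the lowest mean of centred values with -0.62 ± 0.22 (SD, n = 2 arrays), and *YME1L* (CG3499), a protease that cleaves Opa1 in mammals, the highest with 0.18 ± 0.75. On single arrays *rho-7* had -1.0 and *Afg3l2* had 0.54. For import across the inner membrane, *Roe1* (CG6155), the fly GrpE, had 0.93 on array 2 and -0.07 on array 3, or 0.55 and 0.48 after centring. *blp* (CG5268), the fly Tim16, had the lowest mean among the genes of that group with 2 values, 0.25 ± 0.30 after centring. The 5 genes with 1 value ran from -1.08 for *ttm50* to 0.22 for *Tim23*. In fusion and fission no gene besides *Marf* had values on more than 1 array. The other genes of that group with a value were, after centring, *Fis1* with -1.67 and *fzo* with -0.23 on array 3, *clu* with -1.39 on array 2, and *Tango11* with 0.53 and *zuc* with 0.11 on array 1, and so lay on both sides of the middle.

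**Figure D4:**
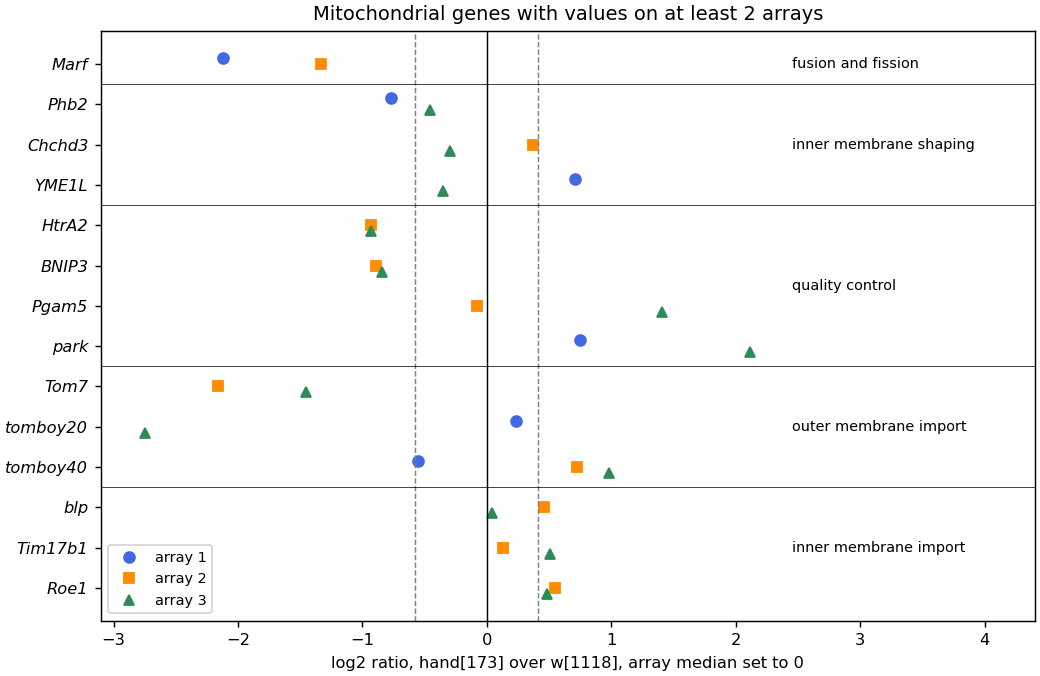
Log2 ratio of hand[173] over w[1118], with each array median set to 0 (horizontal axis), of the members and listed mitochondrial genes with values on at least 2 arrays (rows, grouped by function), for array 1 (circles), array 2 (squares) and array 3 (triangles). Dashed lines mark the thresholds of 0.41 and -0.58; *Marf*, *Tom7*, *HtrA2* and *BNIP3* lie left of the lower line on both of their arrays and *park* right of the upper line on both of its arrays, while *tomboy20*, *tomboy40*, *YME1L*, *Chchd3* and *Pgam5* lie on both sides of 0.

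Genes that neighbour the members in the RefSeq annotation (Release 6 plus ISO1 MT) were looked up. The build for which the array was designed is not given in the sources used here, and no coordinates are printed. *Marf* overlaps 1 annotated non-coding RNA without a row. Its neighbour *swa* had -1.32 on array 3 after centring, and the neighbour on the other side, *PpV*, had no row. *park* overlaps 1 antisense RNA and the gene *Targ3*, neither with a row, and its neighbours CG42337 and *Targ1* had 0.76 and -0.28 on array 3, against 2.11 for *park*. *Miro* overlaps *spas*, which had -0.25 on array 3 after centring and was thus not measured on the array of *Miro*. *tomboy40* overlaps *bin3*, *milt* overlaps *Caper* and *Tom20* overlaps *Gabat*, and these overlapping genes had no row. The strand read by the probes is not given in the sources used here, so that overlapping transcripts cannot be told apart.

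The genes with ratios most like those of *Marf* were sought by the distance between centred values. Since *Marf* lacked a value on array 3, the distance was taken over arrays 1 and 2, a choice made after the values were seen. The 5 nearest of the 530 genes were *Np*, *bs*, *eys*, *BomS1* and *nsl1*, at distances from 0.31 to 0.69, against a median distance of 2.54. *Np*, which encodes a membrane-bound serine protease, had -2.06 and -1.03 under the number CG8181, and *bs*, the fly serum response factor, had -1.59 and -1.57. All 5 also had a value on array 3, where their centred values ran from -2.07 for *bs* to -0.64 for *BomS1*. A further number of *Np*, CG11824, had 1.26 on array 2 after centring, on the opposite side of the middle. A further number of *eys*, CG15388, had -1.31 on array 3, close to the -1.36 of the number that was among the nearest, CG7245.

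The same distance over all 3 arrays was taken for *tomboy40* among 466 genes. The 5 nearest were *Slc25A46b*, *abo*, *Rab35*, CG32320 and *sens-2*, at distances from 0.28 to 0.39, against a median of 2.34. *Slc25A46b*, a member of the mitochondrial carrier family, had centred values of -0.44, 0.68 and 0.73. No other member had values on all 3 arrays, and only *tomboy40* shared arrays 1 and 2 with *Marf*. Likeness over 2 or 3 arrays of 1 pair of pools describes these arrays and no more.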

How the data were processed

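Log2 ratios of hand[173] over w[1118] were available for 3 spotted 2-colour arrays. Scans were read and normalized by the authors with GenePix and Acuity, and the table they deposited holds a single log2 ratio for each gene on each array. How the arrays were normalized, how spots were filtered and why cells are empty is not given in the sources used here, and signal over background is unknown. The direction was taken from the dyes and from the direction in which the study lists its scored genes. The number of arrays limits the precision.

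Values were used as deposited and centred on the median of each array. A gene was scored where 2 of its arrays had a log2 ratio over 0.41, or 2 had a ratio under 0.67, as in the methods, and no test was made, since each genotype had 1 RNA pool. Ranks are the percent of values of an array that were lower. Symbols came from RefSeq, in which 6980 of 7498 numbers were assigned to 1 gene. Members, lists and alternatives were chosen with earlier results of these arrays known. Named genes are the members, listed mitochondrial genes that were scored or had the highest or lowest mean of their group, the 5 genes nearest to *Marf*, and further genes of the lists, which were chosen after their values were seen. The planned distance over 3 arrays could not be taken for *Marf*.

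Alternatives were 2 further ways of centring, all 3 arrays, the mean over arrays, thresholds of 2-fold and symmetric on the log scale, and each array left out. Python 3.11.15, numpy 2.4.6, pandas 2.3.3 and matplotlib 3.10.9 were used.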

Additional observations from a re-analysis of the deposited data

How the results depend on the processing

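*Marf* remained scored as downregulated, and *park* and *tomboy40* as upregulated, with each array centred on its median, centred on the genes with 3 values, centred and scaled, with the mean over arrays and with a symmetric threshold. The medians over genes with 3 values were -0.13 on array 2 and -1.13 on array 3, against 0.38 and -0.56 over all values. Centred on these genes, the middle of arrays 2 and 3 lies over the upper threshold, so that an upward call in this setting says little. When all 3 arrays were required, 0 members were down and 1 up (*tomboy40*), because *Marf* and *park* have 2 values. With a 2-fold threshold 0 were down and 1 up (*park*), since *Marf* reached 0.518 on array 2. An upward threshold of 1.5 left 1 up (*park*), and genes with 3 values only gave 0 down and 1 up (*tomboy40*); both settings were added after the values were seen. With 1 array left out, members scored as downregulated ranged from 0 to 1 and upregulated from 1 to 2. *Marf* was not scored without array 1 or without array 2, and *park* not without array 1 or without array 3, which leave them 1 value. The mean of *Marf* was -1.73 centred on the array median, -1.44 centred on genes with 3 values and -1.92 centred and scaled, and ranged from -1.16 to -0.95 with 1 array left out. Centred on genes with 3 values, *milt* (0.95), *Tom20* (0.63) and *Tom40* (1.16) were over the upper threshold on array 3, as was *Tom40* alone of them centred on the array median. *tomboy40* on array 1 turned to -0.55 centred on the array median, -0.49 centred on genes with 3 values and -0.72 centred and scaled.

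Of the other mitochondrial genes, 3 were down and 1 up centred on the array median, and as many centred and scaled. Centred on genes with 3 values, 1 was down and 4 were up. A gene at the middle of arrays 2 and 3 is scored as up in that setting, so that nothing is read from this rise. The mean over arrays gave 4 down and 2 up, and the symmetric threshold 3 down. With all 3 arrays required 0 were down, which was fixed in advance, since none of these genes had 3 values. With 1 array left out, 0 to 1 were down and 0 up. *Tom7* was not scored without array 2 or without array 3. The share of all genes scored was taken only as deposited, centred on the array median and at the upward threshold of 1.5. Counts of members and of other mitochondrial genes in the other settings have no such share beside them, and nothing is read from their changes. Members measured on 1 array have no check of their value, and signal over background was not analysed here.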
